A study of Homo sapiens with 4 samples.

Results

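The genes described here are 47 drug metabolism genes of Caco-2 cells, taken from a fixed list of symbols: oxidising and hydrolysing (phase I) enzymes, conjugating (phase II) enzymes, efflux and uptake transporters, and nuclear receptors that sense xenobiotics, bile acids or lipids. All 47 symbols matched a row of the table of 37515 Ensembl genes, and 44 had enough reads to be tested. Caco-2 cells, an established line from a human colorectal carcinoma, serve as a model of the intestinal epithelium because it takes on features of absorptive enterocytes once confluent. The cells were grown on transwell inserts, and IFNγ was given at 60 ng/ml in the basal compartment for the stimulated group. RNA-seq was done on 2 unstimulated libraries (0 h) and 2 libraries taken after 3 h of IFNγ, with no genetic change in either group. The control cells were collected at 0 h, so that the effects of IFNγ and of the elapsed 3 h cannot be told apart. The labels do not say whether same-group libraries came from separate cultures, and the p-values then measure only the spread between these samples.

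Drug metabolism in the gut wall runs in steps. Cytochrome P450 enzymes (CYP), fed with electrons by POR, oxidise lipophilic compounds, and carboxylesterases and epoxide hydrolases open ester and epoxide bonds. UGT, SULT and GST enzymes then attach glucuronic acid, sulfate or glutathione, and ABC transporters pump the products out of the cell. Nuclear receptors bind drugs, bile acids, vitamin D or fatty acids, and many of them act on these genes as partners of RXRA. Enterocytes also carry bile acids from the gut lumen to the portal blood, and SLC51A and SLC51B together form the exporter of their basal membrane.

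The libraries held 7171455 to 10365346 counts, with replicate 1 the deeper in both groups, and 1 unit of counts scaled to library size (CPM) corresponded to 7.14 to 10.3 counts. As a check of the labels, 9 of 12 genes known to respond to IFNγ rose and 0 fell. IRF1, a transcription factor induced by IFNγ, had 198 and 144 counts unstimulated and 12348 and 7949 after IFNγ. All 16 enterocyte markers were tested, of which 4 rose and 1 fell, with a summed level of 17550 to 17760 CPM unstimulated and 19430 to 20660 CPM after IFNγ. Among them CDX2, an intestinal transcription factor, had a log2 fold change of 1.20 and SI, the brush border sucrase-isomaltase, one of -1.13, both past the test. With the trend with GC content and transcript length removed, as described below, CDX2 was at 0.99 (adjusted p = 0.00134, edgeR). SI was then at -0.68 and did not pass (adjusted p = 0.085, edgeR). The summed level of 8 leukocyte markers was 13.5 to 15.3 CPM unstimulated and 18.8 to 22.2 CPM after IFNγ. CSF1R and CD14 made up most of it, and neither passed the test. CSF1R was at 7.4 and 7.99 CPM unstimulated and 9.82 and 10.2 CPM after IFNγ. CD14 was at 3.5 and 4.76 CPM unstimulated and 5.74 and 8.87 CPM after IFNγ. ITGAM was at 1.56 to 2.18 CPM over all libraries, and PTPRC had 0 to 2 counts. The summed level of 4 endothelial markers was 1.40 to 2.32 CPM over all libraries. The 7 fibroblast markers summed to 111 to 206 CPM over all libraries, most of it COL1A1. PDGFRA had 76 to 132 counts per library, COL3A1 53 to 117 and LUM 12 to 27. THY1 was at 0 in every library, and COL1A2 and DCN had at most 1 count.

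After 3 h of IFNγ, 6 of the 44 tested genes rose and 5 fell. The genes that rose were SLC51B, VDR, CYP2S1, CES2, SLCO2B1 and CYP27A1, and the genes that fell were PPARG, UGT2A3, SULT1B1, NR5A2 and GSTA2. Rose and fell mean here an adjusted p-value under 0.05 in edgeR's quasi-likelihood test, with Benjamini-Hochberg adjustment over all 14820 tested genes. By the same rule 20.0% of all tested genes changed, 9.02% upwards and 11.0% downwards. With the fold threshold of the study added, an absolute log2 fold change above 1, the numbers in edgeR were 1 gene up (SLC51B) and 0 down, against 2.88% and 4.40% of all tested genes (7.28% together). Over the 44 genes the log2 fold changes had a median of 0.08, against -0.01 over all tested genes. The values of the 2 groups did not overlap in 32 of the 44 genes, against 62.4% of all tested genes (31.6% above and 30.8% below the controls). These are comparisons of bulk RNA, in which fewer cells of a type and less RNA per cell cannot be told apart.

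**Figure D1:**
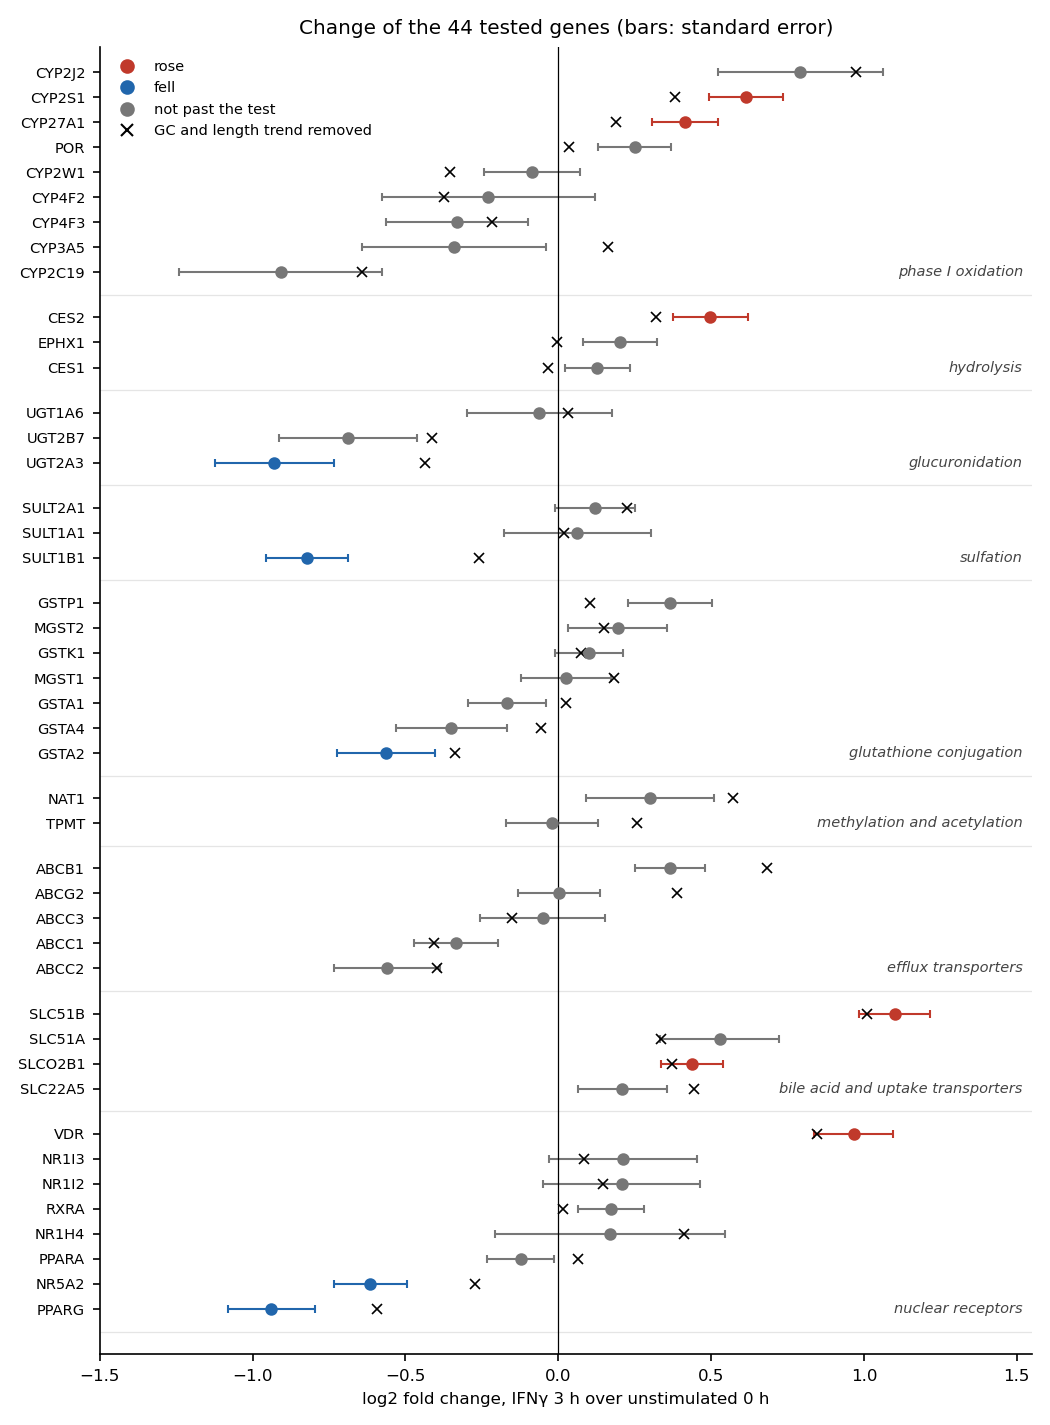
Log2 fold change of the 44 tested genes after 3 h of IFNγ (horizontal axis, log2 scale), grouped by role, as points with standard error bars, and the value after removal of the trend with GC content and transcript length as crosses. SLC51B and VDR stand furthest to the right at 1.10 and 0.97, PPARG and UGT2A3 furthest to the left of the genes past the test at -0.94 and -0.93.

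The direction of change moved with base composition. The 6 genes that rose had a GC content of 50.3% to 60.3% in their longest annotated transcript, and the 5 genes that fell 35.6% to 40.2%. Over the 14518 tested genes with an annotated sequence, the median log2 fold change was -0.51 in the decile lowest in GC and 0.21 in the highest. With that trend and the trend with transcript length removed from each library, 6 genes rose and 1 fell, against 10.2% and 6.78% of the genes in that fit. SLC51B, VDR, SLCO2B1 and PPARG were past the test in both fits. The other 7 had adjusted p-values of 0.0646 to 0.254 from edgeR once the trend was removed. CYP2J2, ABCB1 and SLC22A5 passed in the corrected fit alone.

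**Figure D2:**
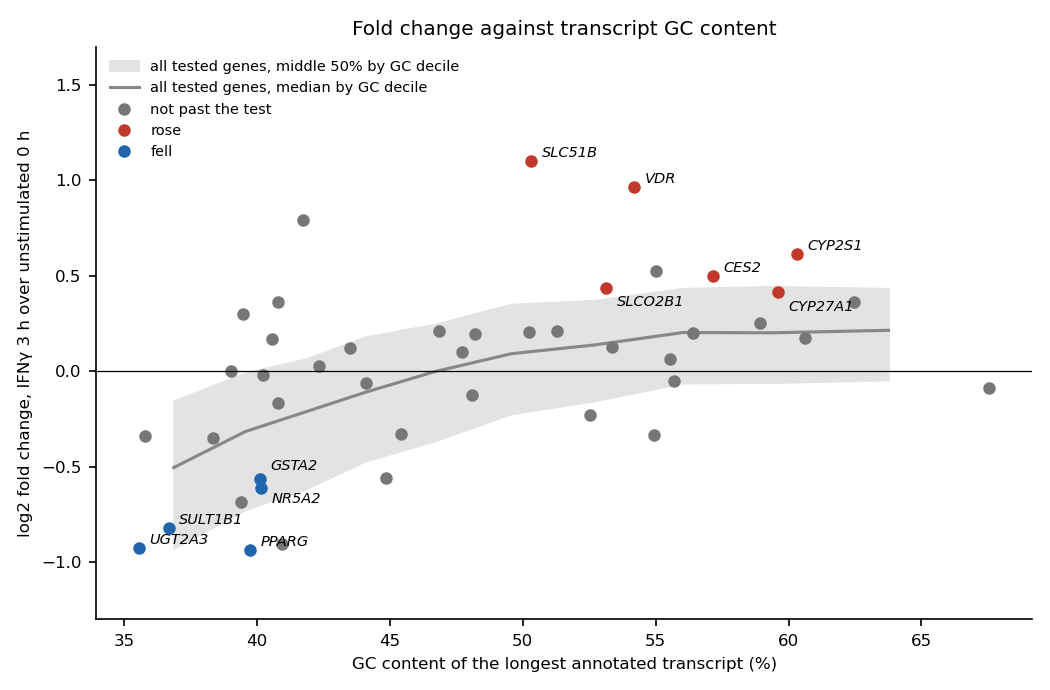
Log2 fold change (vertical axis, log2 scale) against the GC content of the longest transcript in percent (horizontal axis) for the 44 genes, over the median and middle 50% of all tested genes by GC decile. The genes that fell lie at 35.6% to 40.2% GC and those that rose at 50.3% to 60.3%, with SLC51B and VDR far above the band.

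Sequence around the transcription start is shown for 4 of these genes. RefSeq (GRCh38.p14) gives a window of 250 bases before to 50 bases after the start for 37 of the 47 genes. The median GC content was 58.7% over all windows, with the middle 50% from 47.0% to 68.0%, and it ranged from 55.0% to 70.0% in 7 windows of 5 genes that rose and from 31.0% to 56.7% in 11 windows of 5 genes that fell. Shown are the most changed genes in each direction that rose or fell and have a single listed start, as the strand that is transcribed. Capitals mark matches on either strand to 7 motifs: TTCNNNGAA, the core of the gamma-activated site, the interferon-stimulated response element, the TATA box TATAAA, a core of HNF1 sites with the letters GTTAAT, an HNF4 site with CAAAGTCCA, a CDX site with the letters TTTATNG, and the hexamer bound by nuclear receptors, which reads AGGTCA. The SLC51B window (chr15:65045137-65045436, plus strand) is 55.0% GC, and that of CYP2S1 (chr19:41192969-41193268, plus strand) is 70.0%. The UGT2A3 window (chr4:68951755-68952054, minus strand) is 31.0% GC, and that of SULT1B1 (chr4:69760571-69760870, minus strand) is 44.3%.
SLC51B: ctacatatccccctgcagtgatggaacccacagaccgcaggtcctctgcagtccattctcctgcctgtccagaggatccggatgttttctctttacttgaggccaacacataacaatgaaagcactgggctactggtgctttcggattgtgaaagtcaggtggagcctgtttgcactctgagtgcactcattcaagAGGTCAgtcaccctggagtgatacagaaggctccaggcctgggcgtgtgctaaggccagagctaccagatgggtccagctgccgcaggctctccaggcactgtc
CYP2S1: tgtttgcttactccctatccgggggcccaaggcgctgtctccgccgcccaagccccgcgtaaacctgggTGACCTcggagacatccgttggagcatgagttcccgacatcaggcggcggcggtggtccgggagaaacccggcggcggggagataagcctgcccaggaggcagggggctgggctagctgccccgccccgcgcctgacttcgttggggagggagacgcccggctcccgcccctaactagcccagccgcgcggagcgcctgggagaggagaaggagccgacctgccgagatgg
UGT2A3: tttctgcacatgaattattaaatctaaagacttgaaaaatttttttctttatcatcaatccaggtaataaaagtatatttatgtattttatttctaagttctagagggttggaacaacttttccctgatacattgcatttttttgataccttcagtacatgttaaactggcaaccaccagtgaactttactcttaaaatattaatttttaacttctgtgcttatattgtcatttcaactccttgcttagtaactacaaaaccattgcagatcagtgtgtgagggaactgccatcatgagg
SULT1B1: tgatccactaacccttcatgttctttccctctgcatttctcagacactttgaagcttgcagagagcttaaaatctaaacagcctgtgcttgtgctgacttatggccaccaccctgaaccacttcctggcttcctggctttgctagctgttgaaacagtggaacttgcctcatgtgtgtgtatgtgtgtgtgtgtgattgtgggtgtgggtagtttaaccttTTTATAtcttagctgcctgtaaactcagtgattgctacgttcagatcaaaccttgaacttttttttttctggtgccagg

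The SLC51B and CYP2S1 windows each held the nuclear receptor hexamer, which 13.8% of all 35116 RefSeq windows of this length hold. The SULT1B1 window held TATAAA, read on the other strand, 29 bases before its start, and 11.5% of all windows hold these letters. The UGT2A3 window, with 0 CpG pairs against 29 in that of CYP2S1, held none of the 7. The core of the gamma-activated site and the repeat like the interferon-stimulated response element were in none of these 4 windows. Of all windows 7.66% and 3.57% hold these letters. A match is a description of letters and not a binding site.

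Before stimulation 3 of the 7 glutathione conjugation genes, GSTP1, GSTA1 and GSTA2, led the 47. Levels are compared between genes as CPM per kb of merged exon length. GSTP1, a glutathione S-transferase widespread in epithelia, was at 569 ± 91.2 (SD, n = 2) CPM per kb, and GSTA1 at 531 ± 74.4 (SD, n = 2). These were followed by GSTA2 at 363 ± 78.9, the uptake transporter SLCO2B1 at 134 ± 5.64 and the carboxylesterase CES1 at 111 ± 5.48 (SD, n = 2 each). The ranges of GSTP1 and GSTA1 overlapped between the libraries, while each later step of this order, down to UGT2A3, lay apart. These 5 genes made up 71.4% of the summed CPM per kb of all 47. In all, 23 genes were at or above 10 CPM per kb and 7 below 1, and of the 46 pairs of neighbours in the order, 28 had overlapping ranges. At the other end CYP3A4, the main drug-oxidising P450 of the normal small intestine, had 2 and 0 counts unstimulated and 1 and 1 after IFNγ. CYP24A1, which degrades active vitamin D, had 0 and 1 counts unstimulated and 1 and 1 after IFNγ. CYP2C18 had 1 and 0 counts unstimulated and 0 and 2 after IFNγ. These 3 genes lay under the limit of 3 counts, 0.292 to 0.420 CPM, in every library. They did not rise above that limit after IFNγ, while a fall or a change below it was not detectable at this depth.

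**Figure D3:**
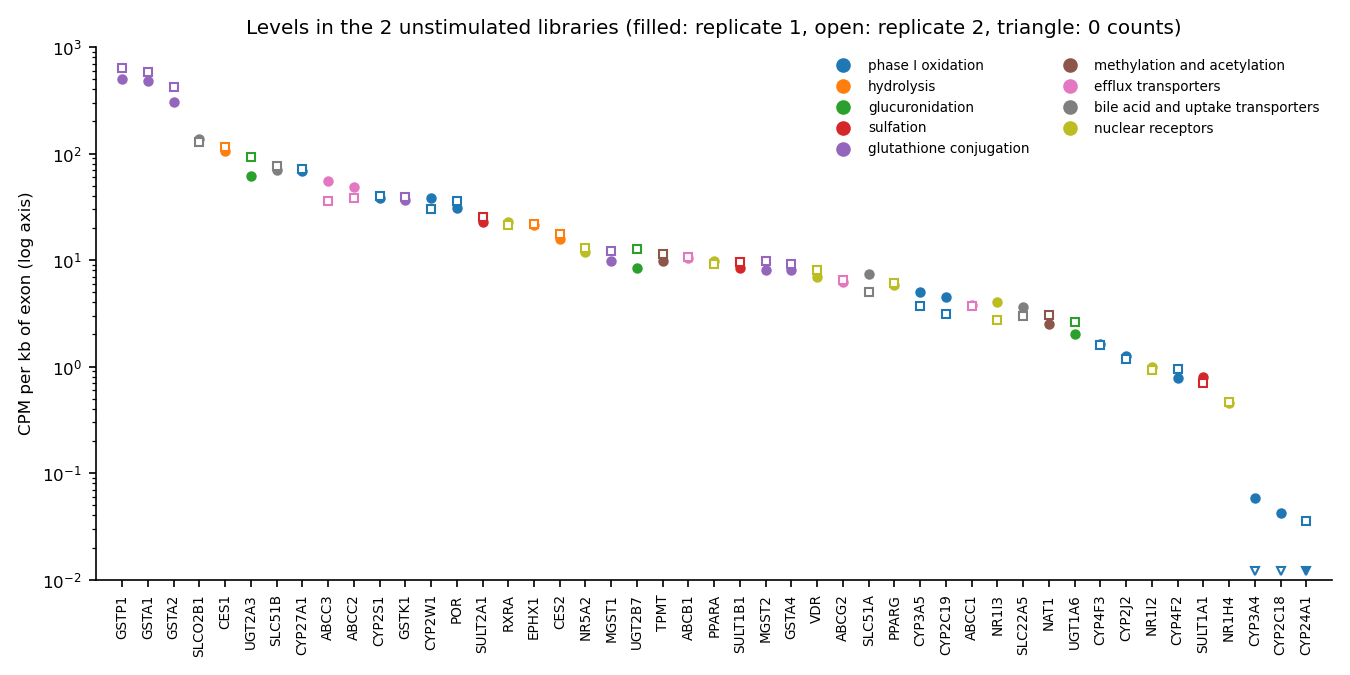
Level of each of the 47 genes in the 2 unstimulated libraries as CPM per kb of exon on a log axis, ordered by the mean and coloured by role. Glutathione S-transferases hold the top 3 places, and CYP3A4, CYP2C18 and CYP24A1 have means of 0.0293 or lower, apart from the next gene, NR1H4, at 0.460.

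Among the 12 phase I oxidation genes, 9 were tested, of which 2 rose and 0 fell, against 9.02% and 11.0% of all tested genes. CYP2S1, an extrahepatic P450 of epithelia (ENSG00000167600, GRCh37 chr19:41699115-41713444), had 103 and 108 CPM in the unstimulated libraries and 150 and 173 CPM after IFNγ. Both IFNγ libraries lay above both controls, and the log2 fold change was 0.61 (standard error, SE, of 0.12, and adjusted p = 0.0137 from edgeR). With the GC and length trend removed it was 0.38 (adjusted p = 0.0646, edgeR). CYP27A1, the mitochondrial sterol 27-hydroxylase of bile acid synthesis (ENSG00000135929, GRCh37 chr2:219646472-219680016), had 205 and 211 CPM unstimulated and 286 and 270 CPM after IFNγ. Its log2 fold change was 0.42 (SE 0.11, adjusted p = 0.0345, edgeR), and the groups did not overlap. With the GC and length trend removed it was 0.19 (adjusted p = 0.254, edgeR). With any single library left out CYP27A1 no longer passed, with adjusted p-values of 0.0707 to 0.138 from edgeR. For CYP2S1 the adjusted p-value was 0.0570 without unstimulated replicate 1.

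The other P450 genes did not pass the test. CYP2C19, known for the metabolism of proton pump inhibitors, was at 28.3 and 19.3 CPM unstimulated and at 16.9 and 8.19 CPM after IFNγ. Both IFNγ libraries were below both controls, but the replicates of each group lay far apart, and the log2 fold change was -0.91 (adjusted p = 0.096, edgeR). Without IFNγ replicate 1 it was -1.57 with an adjusted p-value of 0.00114, and without IFNγ replicate 2 it was -0.53 (adjusted p = 0.199, edgeR). Without unstimulated replicate 1 it was -0.60 (adjusted p = 0.338, edgeR). CYP2J2, an epoxygenase of arachidonic acid, had 38 and 25 counts unstimulated and 68 and 43 after IFNγ, a log2 fold change of 0.79 (adjusted p = 0.0792, edgeR). CYP3A5, a CYP3A enzyme of intestine and liver, had 49.6 and 36.4 CPM unstimulated and 44.7 and 22.8 CPM after IFNγ, with overlapping groups and a log2 fold change of -0.34 (95% confidence interval -1.05 to 0.37). Without IFNγ replicate 1 its value was -0.94 with an adjusted p-value of 0.00831 from edgeR, and it was 0.025 without IFNγ replicate 2 and -0.10 without unstimulated replicate 1. CYP2W1, an enzyme described in colorectal tumors, had 106 and 84.1 CPM unstimulated and 97.7 and 81.2 CPM after IFNγ, with a log2 fold change of -0.09 (95% confidence interval -0.45 to 0.28). It was -0.35 with the GC and length trend removed (adjusted p = 0.112, edgeR), at a transcript GC content of 67.6%. The fatty acid hydroxylases CYP4F2 and CYP4F3, which are close copies and could share reads, had log2 fold changes of -0.23 and -0.33. POR had 194 and 222 CPM unstimulated and 238 and 256 CPM after IFNγ, a log2 fold change of 0.25 (adjusted p = 0.181, edgeR).

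Of the 3 hydrolases 1 rose and 0 fell, against 9.02% and 11.0% of all tested genes. CES2, the carboxylesterase of the intestine (ENSG00000172831, GRCh37 chr16:66968347-66978999), had 83.9 and 94.6 CPM unstimulated and 122 and 130 CPM after IFNγ. The groups did not overlap, with a log2 fold change of 0.50 (SE 0.12, adjusted p = 0.0283, edgeR). It was 0.32 in the separate fit with the GC and length trend removed (adjusted p = 0.126, edgeR). Without unstimulated replicate 1 the adjusted p-value was 0.144, and without IFNγ replicate 2 it was 0.0925. CES1, the carboxylesterase of the liver, was the more abundant in Caco-2 cells, at 111 ± 5.48 CPM per kb against 16.7 ± 1.41 for CES2 (SD, n = 2 each). Its log2 fold change was 0.13 (95% confidence interval -0.12 to 0.38), and that of the epoxide hydrolase EPHX1 was 0.20 (95% confidence interval -0.08 to 0.49).

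Conjugation by glucuronic acid and sulfate showed 1 gene down in each family of 3 and 0 up, against 11.0% and 9.02% of all tested genes. UGT2A3, a glucuronosyltransferase of bile acids (ENSG00000135220, GRCh37 chr4:69794181-69817522), had 188 and 285 CPM unstimulated and 130 and 118 CPM after IFNγ. The unstimulated replicates differed from each other more than the IFNγ replicates did, yet both were higher, and the log2 fold change was -0.93 (SE 0.19, adjusted p = 0.0164, edgeR). With each library left out its log2 fold change ran from -1.20 to -0.60. With the GC and length trend removed it was -0.43 and did not pass (adjusted p = 0.0855, edgeR), at a transcript GC content of 35.6%. UGT2B7, a main glucuronosyltransferase of morphine and other drugs, had 19.0 and 28.9 CPM unstimulated and 15.4 and 14.1 CPM after IFNγ. Its log2 fold change of -0.69 did not pass the test (adjusted p = 0.0713, edgeR). The adjusted p-value was 0.0223 without unstimulated replicate 1 and 0.0499 without IFNγ replicate 1. Without unstimulated replicate 2 the log2 fold change was -0.36 (adjusted p = 0.305, edgeR), and without IFNγ replicate 2 it was -0.65 (adjusted p = 0.115, edgeR). The ratio of UGT2B7 to UGT2A3 counts was 0.101 in both unstimulated libraries and 0.118 and 0.119 after IFNγ. UGT1A6, an enzyme for small phenols, had 96 to 108 counts in the 4 libraries and a log2 fold change of -0.06 (95% confidence interval -0.62 to 0.50). Its annotated exons share 28.7% to 36.7% of their length with each of 8 other UGT1A genes, and how reads there were assigned is not given in the sources used here.

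SULT1B1, the thyroid hormone sulfotransferase of the gut (ENSG00000173597, GRCh37 chr4:70586885-70653679), had 61.3 and 70.3 CPM unstimulated and 37.0 and 37.4 CPM after IFNγ. The IFNγ libraries were close to each other and well below the controls, with a log2 fold change of -0.82 (SE 0.13, adjusted p = 0.0068, edgeR). With the GC and length trend removed it was -0.26 (adjusted p = 0.205, edgeR), the smallest corrected value among the 5 genes that fell, and its transcript GC content was 36.7%. SULT2A1, which sulfates steroids and bile acids, was at 43.6 and 48.8 CPM unstimulated and 51.1 and 49.1 CPM after IFNγ, a log2 fold change of 0.12 (95% confidence interval -0.19 to 0.43). SULT1A1, the phenol sulfotransferase, had 42 to 71 counts per library and a log2 fold change of 0.06 (95% confidence interval -0.50 to 0.62). It belongs to a cluster of near-identical copies, so its count is uncertain.

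Glutathione conjugation held 7 genes, of which 1 fell and 0 rose, against 11.0% and 9.02% of all tested genes. GSTA2 (ENSG00000244067, GRCh37 chr6:52614885-52628273) had 375 and 512 CPM unstimulated and 313 and 287 CPM after IFNγ. The groups did not overlap, and the log2 fold change was -0.56 (SE 0.16, adjusted p = 0.0464, edgeR). It was -0.34 in the separate fit with the GC and length trend removed (adjusted p = 0.0996, edgeR). Without unstimulated replicate 2 it was -0.32 (adjusted p = 0.184, edgeR), and without IFNγ replicate 2 it was -0.52 (adjusted p = 0.0723, edgeR). GSTA1, its neighbour and close copy, had 604 and 736 CPM unstimulated and 614 and 578 CPM after IFNγ, with overlapping groups and a log2 fold change of -0.17 (95% confidence interval -0.47 to 0.13). The ratio of GSTA2 to GSTA1 counts was 0.622 and 0.695 unstimulated and 0.510 and 0.496 after IFNγ. How the counting treated reads common to both genes is not given in the sources used here, so the ratio is uncertain.

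GSTP1, the first of the 47 per kb with a range that overlapped that of GSTA1, had 890 and 1118 CPM unstimulated and 1227 and 1357 CPM after IFNγ. The IFNγ libraries were the higher, but the step between the 2 controls was nearly as large as that between groups, and the log2 fold change of 0.36 did not pass the test (adjusted p = 0.104, edgeR). GSTA4, which clears the lipid peroxidation product 4-hydroxynonenal, had a log2 fold change of -0.35 (95% confidence interval -0.78 to 0.08). The peroxisomal and mitochondrial GSTK1 and the microsomal MGST1 and MGST2 had log2 fold changes of 0.10, 0.03 and 0.19. The thiopurine methyltransferase TPMT was at 30.9 and 36.3 CPM unstimulated and at 31.5 and 34.7 CPM after IFNγ, a log2 fold change of -0.02 (95% confidence interval -0.37 to 0.33). The arylamine acetyltransferase NAT1 had 68 to 106 counts per library and a log2 fold change of 0.30 (95% confidence interval -0.19 to 0.79).

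None of the 5 efflux pumps among the 47 genes rose or fell, by edgeR's quasi-likelihood test without a replicate block. By that test 20.0% of all tested genes did. Of related pumps outside the 47, ABCC4 and ABCC5 fell, while ABCC6, ABCC10 and ABCA1 did not pass. At an unadjusted p-value under 0.05 ABCB1, ABCC1 and ABCC2 passed, 3 of 5, as did 19 of all 44 genes and 35.4% of all tested genes. DESeq2, which called 16.6% of all tested genes (7.04% up, 9.55% down), gave ABCC2 as lower. ABCC2, the apical pump for conjugates (MRP2), had 378 and 298 CPM unstimulated and 261 and 197 CPM after IFNγ. Both IFNγ libraries were below both controls, with a log2 fold change of -0.56 (SE 0.17, adjusted p = 0.0602, edgeR, and 0.0137, DESeq2). The edgeR value was 0.038 without unstimulated replicate 2 and 0.00471 without IFNγ replicate 1. It was 0.235 without unstimulated replicate 1 and 0.167 without IFNγ replicate 2. ABCC3, the basolateral pump for conjugates (MRP3), was at 529 and 347 CPM unstimulated and 468 and 378 CPM after IFNγ, with overlapping groups and a log2 fold change of -0.05 (95% confidence interval -0.53 to 0.43). The ratio of ABCC3 to ABCC2 counts was 1.40 and 1.17 unstimulated and 1.80 and 1.92 after IFNγ.

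ABCB1, the multidrug pump P-glycoprotein, had 66.6 and 68.4 CPM unstimulated and 87.6 and 86.1 CPM after IFNγ. The replicates of each group were close, and the log2 fold change was 0.36 (SE 0.11, adjusted p = 0.0629, edgeR). With the GC and length trend removed it was 0.68 (adjusted p = 0.00657, edgeR), and its transcript GC content was 40.8%. ABCC1 (MRP1), a broad pump for glutathione conjugates, had 33.4 and 32.1 CPM unstimulated and 26.2 and 25.8 CPM after IFNγ, a log2 fold change of -0.33 (adjusted p = 0.13, edgeR). ABCG2 (BCRP), the breast cancer resistance protein, was at 34.8 and 36.0 CPM unstimulated and at 34.7 and 36.2 CPM after IFNγ. Its log2 fold change was 0.00, with a 95% confidence interval of -0.31 to 0.31. It was 0.39 with the GC and length trend removed (adjusted p = 0.0788, edgeR), at a transcript GC content of 39.0%.

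Of the 4 bile acid and uptake transporters, 2 rose and 0 fell, against 9.02% and 11.0% of all tested genes. SLC51B, the beta subunit of the basolateral bile acid exporter (ENSG00000186198, GRCh37 chr15:65337725-65345735), changed most of the 44 genes. It had 64.6 and 69.9 CPM unstimulated and 140 and 148 CPM after IFNγ. The replicates were close and the groups far apart, with a log2 fold change of 1.10 (SE 0.12, adjusted p = 0.00181, edgeR). It ran from 1.01 to 1.16 over the 12 alternatives and passed the test in each. Its partner SLC51A, the alpha subunit, had 38.9 and 26.3 CPM unstimulated and 48.1 and 46.7 CPM after IFNγ, a log2 fold change of 0.53 (adjusted p = 0.0965, edgeR). The IFNγ libraries were the higher, but the controls were unequal, and the log2 fold change was 0.85 (adjusted p = 0.0235, edgeR) without unstimulated replicate 1 and 0.28 (adjusted p = 0.322, edgeR) without unstimulated replicate 2. The ratio of SLC51A to SLC51B counts was 0.603 and 0.377 unstimulated and 0.342 and 0.316 after IFNγ. Exons on the opposite strand overlap 6.6% of the exon length of SLC51B (RASL12) and 7.4% of that of SLC51A (PCYT1A), and the handling of strand is not given in the sources used here.

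SLCO2B1, an uptake carrier of organic anions including steroid sulfates and statins (ENSG00000137491, GRCh37 chr11:74811608-74917594), had 1414 and 1332 CPM unstimulated and 1840 and 1880 CPM after IFNγ. The groups lay well apart, with a log2 fold change of 0.44 (SE 0.10, adjusted p = 0.0248, edgeR), and 0.37 with the GC and length trend removed (adjusted p = 0.042, edgeR). The adjusted p-value was 0.0661 without unstimulated replicate 1, 0.116 without unstimulated replicate 2 and 0.106 without IFNγ replicate 2. SLC22A5, the carnitine transporter OCTN2, had 66.3 and 54.5 CPM unstimulated and 74.1 and 65.8 CPM after IFNγ. Its groups overlapped, and the log2 fold change was 0.21 (adjusted p = 0.344, edgeR), or 0.45 with the trend removed (adjusted p = 0.0375, edgeR).

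The nuclear receptors moved in both directions, with 1 of 8 up and 2 down, against 9.02% and 11.0% of all tested genes. VDR, the vitamin D receptor, which also senses lithocholic acid (ENSG00000111424, GRCh37 chr12:48235320-48336831), had 39.7 and 45.4 CPM unstimulated and 83.0 and 83.1 CPM after IFNγ. The IFNγ libraries were nearly equal and far above the controls, with a log2 fold change of 0.97 (SE 0.13, adjusted p = 0.00369, edgeR). It ran from 0.85 to 1.06 over the 12 alternatives and passed the test in each. The count of CYP24A1, its classical target, stayed at 0 or 1 in every library. No vitamin D was among the treatments in the labels, and whether this bears on CYP24A1 was not tested. PPARG, the fatty acid receptor of adipocytes and colonocytes (ENSG00000132170, GRCh37 chr3:12328867-12475855), had 70.6 and 72.3 CPM unstimulated and 33.7 and 41.1 CPM after IFNγ. Both IFNγ libraries were far below the controls, with a log2 fold change of -0.94 (SE 0.14, adjusted p = 0.00552, edgeR). It ran from -1.11 to -0.59 over the 12 alternatives and passed the test in each. NR5A2, the liver receptor homolog LRH-1 of gut crypts and bile acid synthesis (ENSG00000116833, GRCh37 chr1:199996742-200146548), had 89.2 and 97.4 CPM unstimulated and 59.2 and 62.6 CPM after IFNγ. The groups did not overlap, with a log2 fold change of -0.61 (SE 0.12, adjusted p = 0.0131, edgeR). It was -0.27 in the separate fit with the GC and length trend removed (adjusted p = 0.145, edgeR). The adjusted p-value was 0.0575 without unstimulated replicate 2.

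The common partner RXRA was the most abundant receptor of the 8 per length, at 22.0 ± 0.876 (SD, n = 2) CPM per kb unstimulated, with a log2 fold change of 0.17 (95% confidence interval -0.08 to 0.43). The ratio of VDR to RXRA counts was 0.146 and 0.176 unstimulated and 0.287 and 0.269 after IFNγ. PPARA, the fatty acid receptor of liver and enterocytes, was at 130 and 122 CPM unstimulated and 116 and 115 CPM after IFNγ, a log2 fold change of -0.12 (95% confidence interval -0.38 to 0.14). The ratio of PPARG to PPARA counts was 0.544 and 0.594 unstimulated and 0.291 and 0.356 after IFNγ. The xenobiotic receptors were low. NR1I2 (PXR) had 36 to 67 counts per library and a log2 fold change of 0.21 (95% confidence interval -0.39 to 0.81). NR1I3 (CAR) had 63 to 135 counts and a log2 fold change of 0.21 (95% confidence interval -0.35 to 0.78), and exons of TOMM40L on the opposite strand overlap 20.4% of its exon length. NR1H4 (FXR), the bile acid receptor, had 12 to 19 counts per library and a log2 fold change of 0.17 (95% confidence interval -0.72 to 1.05), too few reads to show a change of the size seen for VDR.

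**Figure D4:**
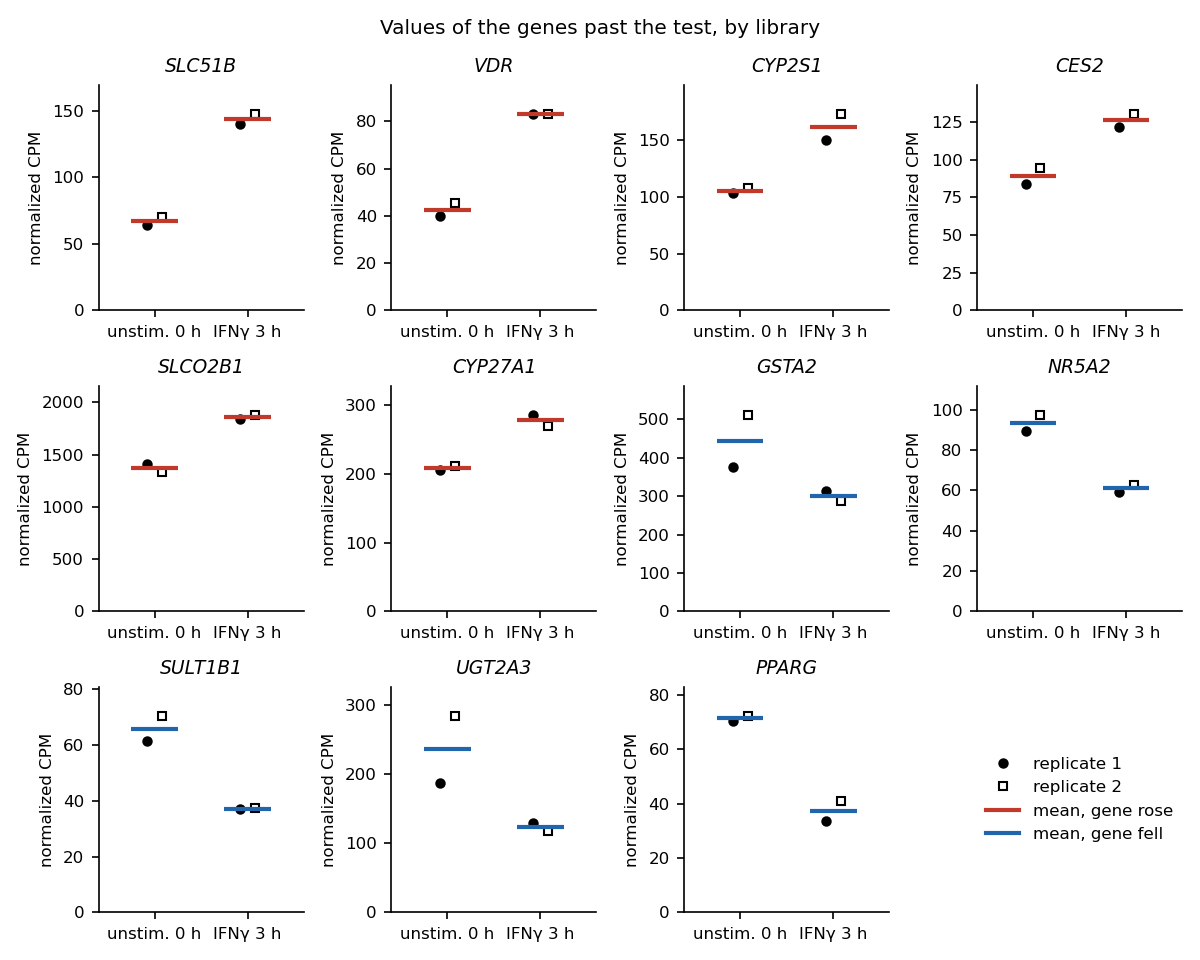
Normalized CPM (vertical axis, from 0) of the 11 genes past the test in each of the 4 libraries, as points, with the mean of each group of 2 as a line. In each panel the 2 IFNγ libraries lie on one side of the 2 unstimulated libraries, and UGT2A3 and GSTA2 show the widest spread between unstimulated replicates.

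Other genes of these pathways came from related lists. Of all tested genes, 9.02% rose and 11.0% fell, or 10.2% and 6.78% with the GC and length trend removed. SLC51A, SLC51B, CYP24A1 and CYP3A4, in the bile acid and vitamin D receptor target lists, also belong to the 47. Among 39 tested phase I genes 3 rose and 1 fell, with a median log2 fold change of -0.04. CYP1A1, an enzyme induced through the aryl hydrocarbon receptor, had 448 and 262 counts unstimulated and 4563 and 3013 after IFNγ. MAOA, the monoamine oxidase, fell, with 30 and 34 counts unstimulated and 15 and 8 after IFNγ. With the GC and length trend removed 2 of these 39 rose and 0 fell, and MAOA was at -1.07 (adjusted p = 0.12, edgeR). Among 26 tested phase II genes 1 rose and 4 fell, with a median of 0.08. NNMT, the nicotinamide methyltransferase, had 0 and 2 counts unstimulated and 41 and 32 after IFNγ. HNMT, the histamine methyltransferase, fell by 1.03 on the log2 scale (adjusted p = 0.00884, edgeR). With the trend removed 3 of these 26 rose and 0 fell, and HNMT was at -0.50 (adjusted p = 0.059, edgeR). Among 22 tested transporters 2 rose and 2 fell, with a median of -0.03 and no log2 fold change past 1 in either direction among these 4. The genes that fell were the pumps ABCC4, at -0.72 (adjusted p = 0.00801, edgeR), and ABCC5, at -0.88 (adjusted p = 0.0109, edgeR). Those that rose were SLC15A1, at 0.42, and SLC46A1, at 0.81. With the trend removed 3 of the 22 rose and 2 fell, the latter again ABCC4 and ABCC5.

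Among 34 other tested receptors and partners 6 rose and 7 fell, against 9.02% and 11.0% of all tested genes. Their median log2 fold change was -0.17. The retinoic acid receptor RARB, at -2.60, and the orphan receptor RORA, at -2.16, had the largest falls in log2 fold change among these 34. HNF4G, a relative of the enterocyte regulator HNF4A, followed at -1.71, and the thyroid hormone receptor THRB at -1.42. PPARGC1B, a coactivator of PPAR and ERR receptors, rose by 1.72 on the log2 scale. With the GC and length trend removed 3 of these 34 rose and 8 fell, against 10.2% and 6.78% of the genes in that fit. Of 13 tested NRF2 targets, an oxidative stress program, 2 rose, HMOX1 at 1.03 and OSGIN1 at 1.04, and 0 fell. Of 10 tested PPARα targets 2 rose and 3 fell. Of the 6 vitamin D receptor targets 3 were tested, and 0 rose and 0 fell by edgeR at an adjusted or unadjusted p-value under 0.05. With the GC and length trend removed ATP2B1, a calcium pump among them, passed at 0.49 (adjusted p = 0.0241, edgeR). Of the 6 bile acid receptor targets 3 were tested and 1 rose, SLC51B itself. SLC51A did not pass, nor did FABP6, at a log2 fold change of 0.17 (adjusted p = 0.723, edgeR). FGF19 and ABCB11 had at most 1 count in any library.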

How the data were processed

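The deposited table holds unnormalized read counts by Ensembl gene, with 1 column for each of 4 libraries. Per the labels, the authors' processing notes name HISAT 0.5.1 and HTSeq 0.6.1p1, and the genome build, annotation and strand setting are not given in the sources used here. Libraries were prepared with a TruSeq RNA kit. Depth was 7171455 to 10365346 counts per library, and precision was limited by 2 libraries per group. Symbols, exon lengths and GC content came from GENCODE 44 on GRCh37, and 96.5% of identifiers had a symbol. Promoter windows came from RefSeq.

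Counts were analyzed with edgeR 4.0.16 in R 4.3.3: default filter on low counts, TMM scaling, quasi-likelihood test without a block, and Benjamini-Hochberg adjustment over 14820 genes. Standard errors were derived from the F statistic. CPM values used the scaled library sizes. GC and length trends were removed by loess (span 0.5) per library. The alternatives also included DESeq2 1.42.0, RLE and upper quartile scaling, other filters, the replicate number as a block, and each library left out. The fits were tested on simulated data.

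The 47 genes and the lists were chosen with earlier results of these data known, and the motifs after the values were seen. Every listed gene is described. From related lists, genes past both the test and the fold threshold are named, with some others for context, and marker genes as a check.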

Additional observations from a re-analysis of the deposited data

How the results depend on the processing

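SLC51B, VDR and PPARG passed the test under all 12 alternatives, and none of the 11 genes that passed changed sign. The number of genes that rose, 6, was 10 with the GC and length trend removed and a replicate block (17.9% of all tested genes), and 1 with the fold threshold added, and ran from 3 to 5 with 1 library left out, against 5.07% to 8.61% of all tested genes (a lone library is then assumed to vary like the other group). The number that fell, 5, was 8 without a filter on low counts, against 7.74% (the p-values are then not comparable, since the estimated prior degrees of freedom were infinite), 1 with the GC and length trend removed, 8 with that trend removed and the block, against 14.8%, and 0 with the fold threshold in edgeR, and ran from 4 to 9 with 1 library left out, against 7.38% to 14.3%. At 2 pairs the replicate numbers do not establish a pairing (the correlation of deviations was 0.415); with the replicate block 11 genes rose and 8 fell, against 17.5% and 19.5% of all tested genes. The genes added by the block were GSTP1, POR, ABCB1, SLC51A and CYP2J2 (up) and ABCC2, UGT2B7 and CYP2C19 (down). Under the block with the GC and length trend removed, CYP2W1 (-0.35), ABCC1 (-0.41), ABCG2 (0.38), NAT1 (0.57) and SLC22A5 (0.44) also passed, and GSTP1, POR, SLC51A, UGT2B7, CYP27A1 and SULT1B1 did not.

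Sign changed only in genes that had not passed. With the GC and length trend removed, alone and with the replicate block, the log2 fold change was 0.16 and 0.14 for CYP3A5, -0.034 and -0.033 for CES1, -0.0038 and -0.0047 for EPHX1, 0.033 and 0.024 for UGT1A6, 0.027 and 0.027 for GSTA1, 0.26 and 0.26 for TPMT and 0.064 and 0.062 for PPARA. TPMT was at 0.024 with upper quartile scaling. ABCG2 was at -0.0032 with RLE scaling, -0.0032 with DESeq2 and -0.0028 with at least 10 counts in every library. With 1 library left out the value ran from -0.24 to 0.091 for CYP2W1, from -0.94 to 0.025 for CYP3A5, from -0.33 to 0.16 for UGT1A6, from -0.026 to 0.17 for SULT1A1, from -0.12 to 0.19 for MGST1, from -0.14 to 0.10 for TPMT, from -0.32 to 0.29 for ABCC3, from -0.049 to 0.027 for ABCG2 and from -0.030 to 0.54 for NR1I3. Counting error at 3 counts or fewer hides a fall, or a change that stays below that limit, in CYP3A4, CYP2C18 and CYP24A1. DESeq2 gave no adjusted p-value for CYP4F2 and NR1H4. By longest transcript in place of merged exons, a choice made after seeing the data, 28 genes in place of 23 reached 10 CPM per kb.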
